A study of Saccharomyces cerevisiae with 159 samples.

Results

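The large subunit of the yeast ribosome is put together by assembly factors, proteins that bind the pre-ribosomal particle and leave it again before the subunit takes part in translation. The 47 genes described here encode such factors. They were taken by gene name from the table of *Saccharomyces cerevisiae* transcripts, which holds 7130 rows, 6685 of them nuclear open reading frames and not by a threshold on measured values. All 47 were found, and all 47 passed the filter on low values in each of the 8 experiments. They were set beside the 137 cytosolic ribosomal protein genes, whose products make up the finished subunits.

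The RNA-seq libraries, 159 in all, came from W303 strains in rich YEPD medium, with acetic acid added in the Bcy1 experiment. The labels give polyA RNA for the *cdc20-1*, *cdc15-2* and prototroph experiments and total RNA for the rest. The study's methods instead describe mRNA enrichment for the alpha factor and Bcy1 experiments too. For the main arrest experiment, *cdc28-13* cells (A39000, *cdc28-13::URA3*), in which heat inactivates the main cyclin-dependent kinase of the cell cycle so that cells arrest in G1, and *WT* cells (A2587) were grown at 25 °C and then held at 37 °C. *WT* had 3 libraries at 2, 4, 6, 8 and 9 h, and *cdc28-13* had 3 at 2, 8 and 9 h but only 1 at 4 h and 1 at 6 h. The *cdc20-1* strain (A937, *MATalpha*), which arrests in metaphase, and the *cdc15-2* strain (A2596), which arrests in anaphase, were each compared with A2587 at 37 °C with 1 library a time point. Likewise, 1 library a time point was made of cells treated with 5 µg/mL alpha factor, a mating pheromone that arrests cells in G1, and of cells given the solvent DMSO (A2589, *bar1::HisG*, 30 °C), and of a prototrophic (A41270, also *leu2::4xSTRE-GFP:LEU2*) and an auxotrophic strain (A17896), both *cdc28-13* at 37 °C after synchronization with alpha factor. For growth into stationary phase (2 to 24 h) and rapamycin (0 to 5 h, 5 nM by the labels), a haploid (A2587) and a strain labelled *MATa/alpha* diploid (A33728) were kept at 30 °C, with 2 libraries a group except 1 for the haploid at 4 h of growth. A supplementary legend gives another rapamycin dose for the diploid. In the Bcy1 experiment, *WT*, *cdc28-13*, *cdc20-1* and *cdc15-2* strains were held at 37 °C for 2, 4 and 6 h with or without AID-BCY1 (*KanMX:pRFA1:9Myc-AID\*-BCY1* with *leu2::pTEF1-osTIR::LEU2*), a degron fusion that lets auxin remove Bcy1, the inhibitory subunit of protein kinase A. All of these strains received 500 µM auxin after the 2 h sample, and each group had 2 libraries, from the series d113 and d226, except *WT* at 2 h with 1. The *cdc20-1* pair also differed in mating type (the AID-BCY1 strain was *MATa*, its parent A937 *MATalpha*) and the *cdc15-2* pair in auxotrophic markers, so that these differences and AID-BCY1 cannot be told apart. From *WT* (A2587, *MATa*), A937 likewise differed in mating type and A2596 in auxotrophic markers. In comparisons with *WT* these differences and the *cdc20-1* or *cdc15-2* mutation cannot be told apart.

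Assembly of the large subunit begins in the nucleolus on 27S pre-rRNA, where scaffold proteins, RNA helicases and rRNA methyltransferases shape the particle, and GTPases act at later steps in the nucleolus and nucleoplasm. Some ribosomal protein-like factors hold the place of a ribosomal protein until it can be exchanged. Export factors bring the particle to the cytoplasm, where the last factors are released. The genes for these factors, called ribosome biogenesis or Ribi genes, are known to be transcribed together in growing yeast and to be repressed when the TORC1 or protein kinase A pathway is switched off.

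Values are given as log2(TPM + 1), where TPM is the transcript abundance as a share of all transcripts after the open reading frames outside the ribosomal DNA were rescaled to a total of 1000000. Between libraries, 74.1 to 87.5% of open reading frame TPM in the *cdc28-13* experiment, 64 to 75% in the rapamycin experiment and 63.8 to 74.8% in the stationary phase experiment lay in 7 open reading frames inside the ribosomal DNA, which was the reason for rescaling. Ribosomal RNA made up 75 to 84.1% of TPM in these 3 experiments and at most 33.4% in the others. TPM keeps no sequencing depth, so the depth behind a value is unknown. Factor genes were listed at exactly 0 in 11 of 1222 values of the *cdc28-13* experiment, 71 of 1081 of stationary phase, 53 of 1128 of rapamycin and none elsewhere. Such a 0 can be a failed estimate. No fold is given for a named gene in a comparison where a library is listed at 0, but the tests, counts and list medians include these values. A gene is called changed where limma gave a Benjamini-Hochberg adjusted p under 0.05 over all genes kept. Shares of all genes called belong to this main fit. Counts under another setting, or without a library, were taken for the factor genes only. They show how far a count moves and cannot be set against a share of all genes. Nothing in the labels says that replicates came from separate cultures, so the p-values measure the spread between these libraries, which may be technical. RNA was taken from whole cultures, and fewer cells of a kind and less RNA per cell cannot be told apart.

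The promoters of the 47 genes share letters with those of other ribosome biogenesis genes, which the choice of genes did not use. In the 250 bases before the start codon (R64, the sacCer3 assembly), read on both strands, the core GATGAG of the PAC element was found in 45 of the 47 genes (95.7%), against 17.0% of all 6007 promoters and 10.2% of those of ribosomal protein genes. The core AAAAATTT of the RRPE element, which does not overlap GATGAG in its letters, was found in 40 of 47 (85.1%), against 13.4% of all promoters and 11.7% of ribosomal protein gene promoters. Both cores were present in 38 genes (80.9%), against 4.98% of all promoters, and no factor gene lacked both, against 74.6% of all promoters. The nearest lists were alike. Among the 51 small-subunit processome genes 86.3% held the PAC core, 82.4% the RRPE core and 72.5% both, and among 28 further large-subunit factors 71.4%, 75% and 50.0% did. The PAC core was missing from *NSA1* and *SPB1*. A longer PAC form, GCGATGAG, was found in 30 of 47 (63.8%) and in 3.83% of all promoters. The match is of letters only and does not say that a factor binds there. The stretches from 250 to 91 bases before the start codon are printed 5′ to 3′ along the coding strand for 6 genes whose transcripts are followed below, with PAC and RRPE cores on either strand in capitals. They show the repeated PAC cores of *NOP7* (YGR103W, chrVII:695167-695326, plus strand), *HAS1* (YMR290C, chrXIII:851682-851841, minus strand) and *RLP24* (YLR009W, chrXII:166287-166446, plus strand), the separate cores of *NOG1* (YPL093W, chrXVI:370728-370887, plus strand), *NSA1* without a PAC core (YGL111W, chrVII:299728-299887, plus strand) and *LOC1* without an RRPE core (YFR001W, chrVI:148860-149019, plus strand).
NOP7: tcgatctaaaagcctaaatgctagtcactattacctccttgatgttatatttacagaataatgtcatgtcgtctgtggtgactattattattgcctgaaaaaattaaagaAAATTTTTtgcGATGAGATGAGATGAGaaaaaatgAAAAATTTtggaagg
HAS1: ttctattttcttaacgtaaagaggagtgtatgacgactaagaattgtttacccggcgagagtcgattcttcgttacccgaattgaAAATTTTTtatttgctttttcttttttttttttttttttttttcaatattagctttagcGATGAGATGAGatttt
NOG1: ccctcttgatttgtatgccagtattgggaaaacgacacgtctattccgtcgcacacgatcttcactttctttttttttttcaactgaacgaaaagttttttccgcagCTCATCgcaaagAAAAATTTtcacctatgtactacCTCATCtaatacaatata
RLP24: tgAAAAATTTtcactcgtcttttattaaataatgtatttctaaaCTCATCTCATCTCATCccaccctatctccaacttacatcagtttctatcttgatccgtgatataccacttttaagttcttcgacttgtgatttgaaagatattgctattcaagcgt
NSA1: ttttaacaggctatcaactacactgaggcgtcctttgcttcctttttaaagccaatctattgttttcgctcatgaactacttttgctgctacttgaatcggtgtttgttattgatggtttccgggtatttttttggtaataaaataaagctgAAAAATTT
LOC1: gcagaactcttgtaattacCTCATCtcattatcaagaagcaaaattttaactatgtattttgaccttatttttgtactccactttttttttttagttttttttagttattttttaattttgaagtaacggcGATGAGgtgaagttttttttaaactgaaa

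Rapamycin, an inhibitor of TORC1, was followed by a fall within 1 h. The experiment had no untreated libraries at 1 to 5 h, so rapamycin and time in culture cannot be told apart. In the haploid, 37 of 47 factor genes were lower after 1 h than at 0 h by limma with adjusted p under 0.05, where 7.72% of all 6176 genes were lower. At 2 h 39 were lower (8.11% of all genes), at 3 h 13 (5.07%), at 4 h 11 (4.58%), and at 5 h none (3.85%), when 3 had an unadjusted p under 0.05 and 2161 of all genes did. The median log2 difference of the 47 genes from 0 h over these 5 hours was -3.88, -3.16, -1.35, -1.2 and -0.62. The median of all genes lay at 0.62 to 0.73 above 0 h over these hours. Relative to all genes, the factor genes at 5 h stood at -1.27 and -1.25 in the 2 libraries. Of the 137 ribosomal protein genes, 95, 124, 115, 111 and 101 were lower at 1, 2, 3, 4 and 5 h, with medians of -2.15, -4.46, -4.04, -3.45 and -2.75. The 51 small-subunit processome genes, which act on the other subunit, had 41, 36, 15, 8 and 0 genes lower over the same hours. With the fit restricted to the compared groups, 21 factor genes were called at 1 h, 23 at 2 h and 5 at 5 h, and on the deposited values without rescaling 19 were called lower at 5 h.

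**Figure D1:**
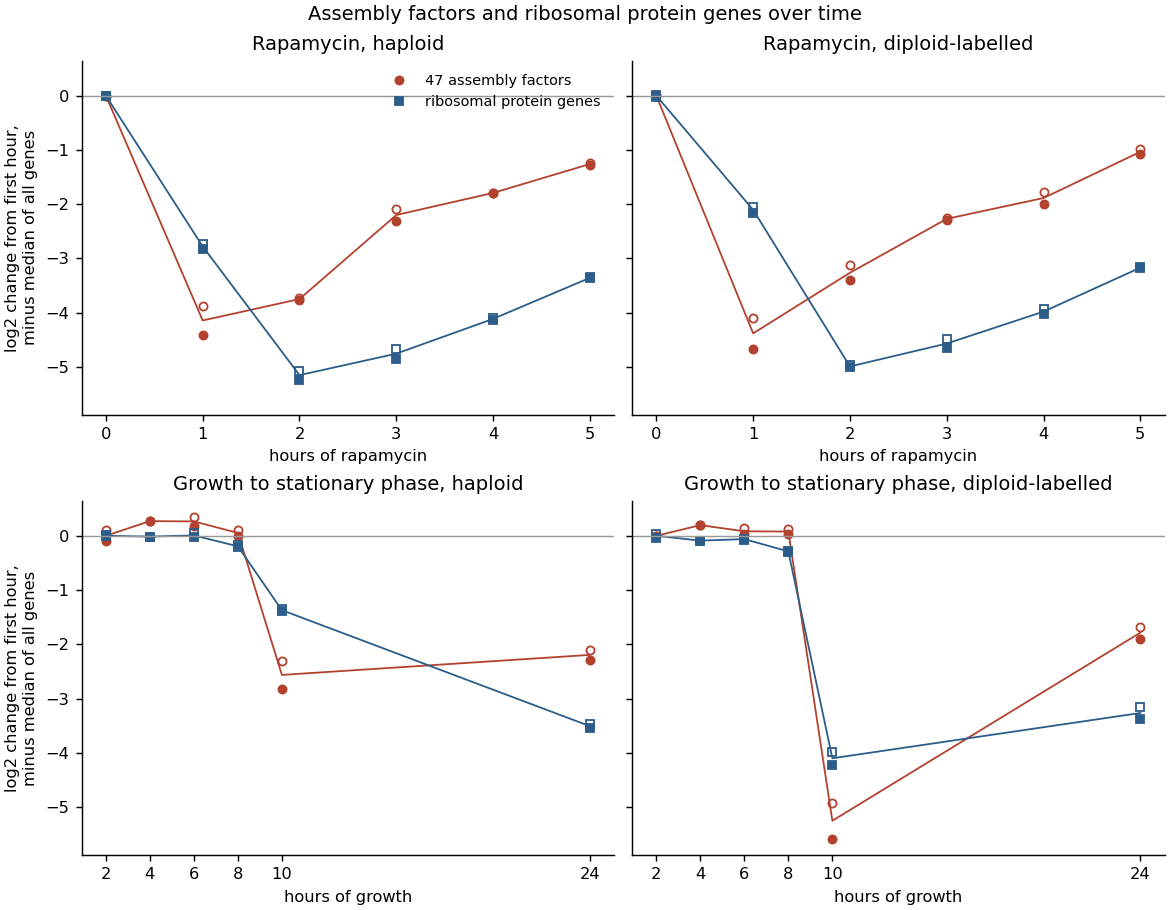
Median log2 change from the first hour, minus the median change of all genes (vertical axes), against hours (horizontal axes), for the 47 assembly factor genes (red circles) and the 137 ribosomal protein genes (blue squares), in the haploid (left) and the diploid-labelled strain (right), under rapamycin (top) and during growth into stationary phase (bottom). Points are libraries, filled and open for the lower and the higher of a pair, and lines join their means. After 1 h of rapamycin the factor genes of the haploid stood at -4.41 and -3.88 and the ribosomal protein genes at -2.83 and -2.73. At 2 h the order was turned round, with -3.77 and -3.73 against -5.23 and -5.07.

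The list medians therefore reached their lowest point at different hours, as the plot of changes over time shows. In the haploid the mean of 30 of the 47 factor genes was lowest at 1 h, of 16 at 2 h and of 1 at 4 h, while 1628 of all 5800 genes without ties were lowest at 1 h and 1037 at 2 h. Of the 135 ribosomal protein genes without ties, 1 was lowest at 1 h, 94 at 2 h and 31 at 3 h. In the diploid-labelled strain 43 of 47 factor genes and 1 of 135 ribosomal protein genes were lowest at 1 h, and 34.4% of all genes were. Values listed at 0 count in these means and can set a gene's lowest hour. In the haploid, 13 of the 37 factor genes called lower at 1 h and 7 of the 39 at 2 h held such a value. In the diploid-labelled strain 17 of 45 and 2 of 29 did. The difference between the list medians, factor genes minus ribosomal protein genes, was -1.73 at 1 h and 1.3 at 2 h in the haploid and -2.36 at 1 h and 1.74 at 2 h in the diploid-labelled strain. It kept its sign on the deposited values, where it was -0.29 at 1 h and 2.13 at 2 h in the haploid and -0.78 at 1 h and 2.38 at 2 h in the diploid-labelled strain. Without the first of the haploid 1 h libraries it was -1.15.

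Among single genes the course of *NOG1*, a GTPase of the nucleolar pre-60S particle, had the least spread between libraries of all 47. Its log2 values in the 2 haploid libraries were 7.93 and 8.26 at 0 h, 4.48 and 3.98 at 1 h, 4.32 and 4.25 at 2 h, 6.57 and 6.52 at 3 h, 7.15 and 7.34 at 4 h, and 8.16 and 8.13 at 5 h. The 1 h change was -3.87 ± 0.26 (SE, limma adjusted p = 2.55e-08). That from 0 to 5 h was 0.05 (adjusted p = 0.948), while the median of all genes rose by 0.62. The libraries at 1 and 2 h lay below all those at other hours, and those at 5 h lay within the range of those at 0 h. *NOP7*, a member of the PeBoW complex that is needed to process 27S pre-rRNA, had 8.06 and 7.64 at 0 h, 2.28 and 4.06 at 1 h, 2.61 and 3.94 at 2 h, 4.90 and 6.12 at 3 h, 6.56 and 6.81 at 4 h, and 7.17 and 7.03 at 5 h. Its change at 1 h was -4.68 ± 0.68 (adjusted p = 8.49e-05). The 5 h values lay between the 3 h values and the 0 h values. *HAS1*, a DEAD-box helicase, had 7.47 and 7.69 at 0 h, 3.88 and 4.32 at 1 h, 3.75 and 2.77 at 2 h, and 6.63 and 6.24 at 5 h (1 h change -3.48 ± 0.66, adjusted p = 0.000837).

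The other roles moved in the same direction. *NOP2*, which methylates 25S rRNA, had 7.94 and 7.75 at 0 h, 3.98 and 3.51 at 1 h, 5.53 and 5.27 at 2 h, and 7.13 and 7.23 at 5 h, so that its lowest libraries were those at 1 h (-4.10 ± 0.35, adjusted p = 3.43e-07). *PUF6*, an RNA-binding factor, had 7.27 and 6.93 at 0 h, 3.01 and 3.42 at 1 h, 3.92 and 3.29 at 2 h, and 6.76 and 6.56 at 5 h (1 h change -3.88 ± 0.46, adjusted p = 1.1e-05). *RPF2* (YKR081C), which with *RRS1* brings the 5S particle to the pre-60S subunit, had 6.82 and 7.09 at 0 h, 2.98 and a value listed at 0 at 1 h, was listed at 0 in both libraries at 2 h, and had 5.54 and 6.17 at 5 h. Its libraries at 3 h, with 6.12 and 5.00, were already above those at 1 h. *NMD3*, the adaptor for nuclear export, had 7.66 and 7.52 at 0 h against 2.46 and 4.68 at 1 h and 7.05 and 7.13 at 5 h, and *NOC3*, which acts with *NOC2* on the nucleolar particle, had 6.18 and 6.46 at 0 h, 0 and 3.94 at 1 h, and 6.23 and 4.74 at 5 h. At 1 h *NMD3* changed by -4.02 ± 0.83 (adjusted p = 0.00157), and *NOC3* was called with the listed 0 included (adjusted p = 0.0118). *SSF1*, a Brix-domain scaffold protein, had 6.53 and 6.53 at 0 h, 2.62 and 3.01 at 1 h, 3.90 and 4.76 at 2 h, and 4.83 and 4.57 at 5 h (1 h change -3.71 ± 0.88, adjusted p = 0.00418). Its near-identical paralog *SSF2*, with which it can share reads, had 5.65 and 5.77 at 0 h and 4.02 and 4.87 at 1 h (adjusted p = 0.093), so the split between this pair is uncertain.

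The lowest fitted values at 1 h rested on libraries listed at 0, as 13 of the 37 genes called then had at least 1 such library. *NOP4*, an RNA-binding nucleolar protein, had 6.86 and 7.40 at 0 h and was listed at 0 in both 1 h libraries. *CIC1*, a scaffold protein at the second internal transcribed spacer, had 7.74 and 7.84 at 0 h and 0 and 3.26 at 1 h (adjusted p = 2.07e-05 with the listed 0 included). At the other end, *TIF6*, which keeps the subunits from joining too early, had 7.66 and 8.17 at 0 h and 6.47 and 7.57 at 1 h (-0.89, adjusted p = 0.135), and *RRP15* had 6.06 and 6.79 at 0 h and 4.88 and 5.34 at 1 h (-1.31, adjusted p = 0.629). By role, all 3 PeBoW genes, both methyltransferases, all 3 Noc genes, both 5S loaders and all 3 GTPases were lower at 1 h, as were 7 of 12 scaffold genes, 7 of 9 helicases, 2 of 3 ribosomal protein-like genes, 3 of 4 export and cytoplasmic factors and 5 of 6 other RNA-binding factors.

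The ribosomal protein-like factors can be set beside the ribosomal proteins they resemble. *RLP24*, like ribosomal protein L24, had 7.66 and 7.59 at 0 h, 3.73 and 4.15 at 1 h, 0 and 4.99 at 2 h, 6.54 and 6.54 at 3 h, and 6.37 and 6.77 at 5 h, with a 1 h change of -3.69 ± 1.4 that did not pass the test (adjusted p = 0.059). *RPL24B* (YGR148C), which encodes L24, had 11.09 and 11.18 at 0 h, 9.66 and 10.07 at 1 h, 7.84 and 7.67 at 2 h, 7.52 and 8.30 at 3 h, and 8.64 and 8.44 at 5 h. At 3 h the libraries of *RLP24* thus lay above those at 1 h, while those of *RPL24B* lay below theirs. *MRT4*, like ribosomal protein P0, had 7.89 and 7.88 at 0 h, 0 and 3.92 at 1 h, 4.82 and 3.80 at 2 h, and 6.95 and 6.25 at 5 h. *RPP0* (YLR340W), which encodes P0, had 11.88 and 11.71 at 0 h, 10.27 and 10.53 at 1 h, 8.21 and 7.96 at 2 h, and 9.15 and 9.10 at 5 h, with changes of -1.4 ± 0.26 at 1 h (adjusted p = 6.36e-04) and -3.71 at 2 h (adjusted p = 2.07e-08). Protein L7, which *RLP7* resembles, has a pair of genes. *RPL7A* changed by -2.49 ± 0.40 at 1 h (adjusted p = 1.83e-04) and by -4.94 at 2 h (adjusted p = 1.07e-07). *RPL7B* had 9.39 and 8.73 at 0 h, 7.01 and 6.72 at 1 h, and 6.83 and 7.23 at 2 h. Its libraries did not overlap those at 0 h, but the differences of -2.19 ± 1.82 at 1 h (adjusted p = 0.415) and -2.03 at 2 h (adjusted p = 0.433) did not pass the test. The SE is pooled over all groups, and a haploid 3 h and a diploid-labelled 1 h library of *RPL7B* were listed at 0.

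Between 2 and 5 h of rapamycin 19 of the 47 genes rose in the haploid (3.61% of all genes rose), with a median of 2.43, and 61 ribosomal protein genes rose, with a median of 1.77. *NOG1* rose by 3.86 ± 0.26 (adjusted p = 5.58e-07), *NOP7* by 3.82 (adjusted p = 0.00298) and *PUF6* by 3.06 (adjusted p = 0.000724). Without the first 5 h library 11 genes were called, without the second 10, and in a fit of the compared groups alone 1. The share of rescaled TPM that fell on the 47 genes was 0.730 and 0.738% before rapamycin. After 1 h it was 0.075 and 0.103%, after 2 h 0.113 and 0.105%, and after 5 h 0.503 and 0.479%. Ribosomal protein genes held 35.8 and 35.6% before rapamycin, 9.36 and 9.39% after 1 h, 2.53 and 2.21% after 2 h, and 5.91 and 5.76% after 5 h.

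The diploid-labelled strain gave 45, 29, 14, 11 and 0 factor genes lower at 1, 2, 3, 4 and 5 h than at 0 h, where 7.56, 7.3, 5.13, 4.65 and 4.06% of all genes were lower. At 5 h, 1 gene had an unadjusted p under 0.05, and 2072 of all genes did. Relative to all genes, the factor genes at that hour stood at -1.08 and -0.98 in the 2 libraries. *NOG1* had 8.21 and 8.32 at 0 h, 3.21 and 3.83 at 1 h, 5.35 and 5.18 at 2 h, and 7.72 and 8.10 at 5 h, with a 1 h change of -4.74 ± 0.26 (adjusted p = 2.73e-09). *ARX1*, an export factor, had 7.68 and 7.63 at 0 h and was listed at 0 in both 1 h libraries, and *HAS1* had 7.70 and 7.52 at 0 h and 0 and 2.71 at 1 h. The smallest changes were those of *TIF6* (8.25 and 7.94 at 0 h, 6.33 and 6.61 at 1 h, adjusted p = 0.0104) and *NOP16* (-1.74, adjusted p = 0.0079). From 2 to 5 h, 14 factor genes rose (3.64% of all genes). The strains' changes at 1 h and 2 h were compared gene by gene, and limma called none of the 47 as different (0.68 and 0.712% of all genes were called), while 6 and 5 had an unadjusted p under 0.05. On the deposited values without rescaling 19 factor genes were called lower at 5 h in this strain, and 5 were called when values were centred on the median gene.

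During growth toward stationary phase a fall of the factor genes was called at 10 h and not before. Compared with 2 h, limma called no factor gene lower in the haploid at 4, 6 or 8 h (0.361, 0.345 and 0.279% of all genes were lower) and 1 gene had an unadjusted p under 0.05 at each hour, against 414, 494 and 548 of all genes. At 10 h 26 were lower (4.8% of all genes) with a median of -2.53, and at 24 h 18 were lower (10.3% of all genes) with a median of -1.85. Of the ribosomal protein genes 58 were lower at 10 h and 110 at 24 h, with medians of -1.15 and -3.15. The mean of 36 factor genes was lowest at 10 h and of 11 at 24 h, whereas that of 4 ribosomal protein genes was lowest at 10 h and of 133 at 24 h. Of all genes 18.8% were lowest at 10 h and 26.8% at 24 h. Values listed at 0 count in these means too, and 7 of the 26 factor genes called at 10 h and 4 of the 18 at 24 h held one. Without the second 10 h library 17 factor genes were called at 10 h, without either 2 h library 14, and without the first 2 h library 9 were called at 24 h. In a fit of the compared groups alone 12 were called at 10 h. On the deposited values the counts were 41 at 10 h and 38 at 24 h, for which no share of all genes was taken.

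*NOG1* had 8.33 and 8.29 at 2 h, 8.19 and 8.03 at 8 h, 4.66 and 4.64 at 10 h, and 5.07 and 6.20 at 24 h in the haploid, with a 10 h change of -3.66 ± 0.36 (adjusted p = 1.3e-05). *NOP7* had 8.26 and 7.85 at 2 h, 5.41 and 2.87 at 10 h, and 6.00 and 4.05 at 24 h (10 h change -3.91 ± 0.73, adjusted p = 0.00267). *RPF1*, a Brix-domain scaffold protein, had 5.85 and 6.35 at 2 h, was listed at 0 in both 10 h libraries, and had 6.71 and 6.37 at 24 h. *RPF1* and the helicase gene *DBP10* (4.86 and 4.04 at 10 h, 6.00 and 5.95 at 24 h) were the only factor genes called higher at 24 h than at 10 h, where 5.01% of all genes were. The least changed at 10 h were *DBP6*, a helicase, with 5.21 and 4.77 at 2 h and 4.39 and 4.28 at 10 h (adjusted p = 0.684), and *NIP7*, with 5.86 and 4.35 at 2 h and 4.29 and 4.57 at 10 h (adjusted p = 0.855). Over the same hours *RPP0* had 11.44 and 11.90 at 2 h, 10.44 and 10.83 at 10 h, and 8.18 and 8.35 at 24 h, so its lowest libraries were those at 24 h.

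In the diploid-labelled strain no factor gene was called lower at 4, 6 or 8 h (0.0329, 0.0493 and 0.164% of all genes were lower, and 0, 1 and 1 factor genes had an unadjusted p under 0.05, against 393, 461 and 518 of all genes). At 10 h 46 of 47 were lower (15.1% of all genes) with a median of -4.86, and at 24 h 10 were lower (9.5% of all genes) with a median of -1.59. *NOG1* had 7.84 and 7.63 at 2 h, 7.86 and 8.06 at 8 h, 4.07 and 3.05 at 10 h, and 6.47 and 6.08 at 24 h (10 h change -4.18 ± 0.36, adjusted p = 5.4e-07). Of the 46 genes, 35 were listed at 0 in at least 1 of the 10 h libraries and 13 in both, and 11 had no such value. *RLP24*, *BRX1*, *NUG1* and *RLP7* were among the 13, with *RLP7* at 6.83 and 7.16 at 2 h and 6.80 and 6.95 at 24 h. From 10 to 24 h 31 factor genes rose (9.56% of all genes), with a median of 3.17, and 51 ribosomal protein genes rose, with a median of 0.89. The 24 h count was 6 without the second 24 h or the second 2 h library and 35 on the deposited values. The fall by 10 h differed between the strains for 7 factor genes, *RLP24*, *RLP7*, *NSA2*, *NOC2*, *NUG1*, *NOP4* and *ARX1*, all lower in the diploid-labelled strain (6.26% of all genes were), and for 94 ribosomal protein genes. All 7 were listed at 0 in both diploid-labelled 10 h libraries, so this difference rests on values that can be failed estimates.

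**Figure D2:**
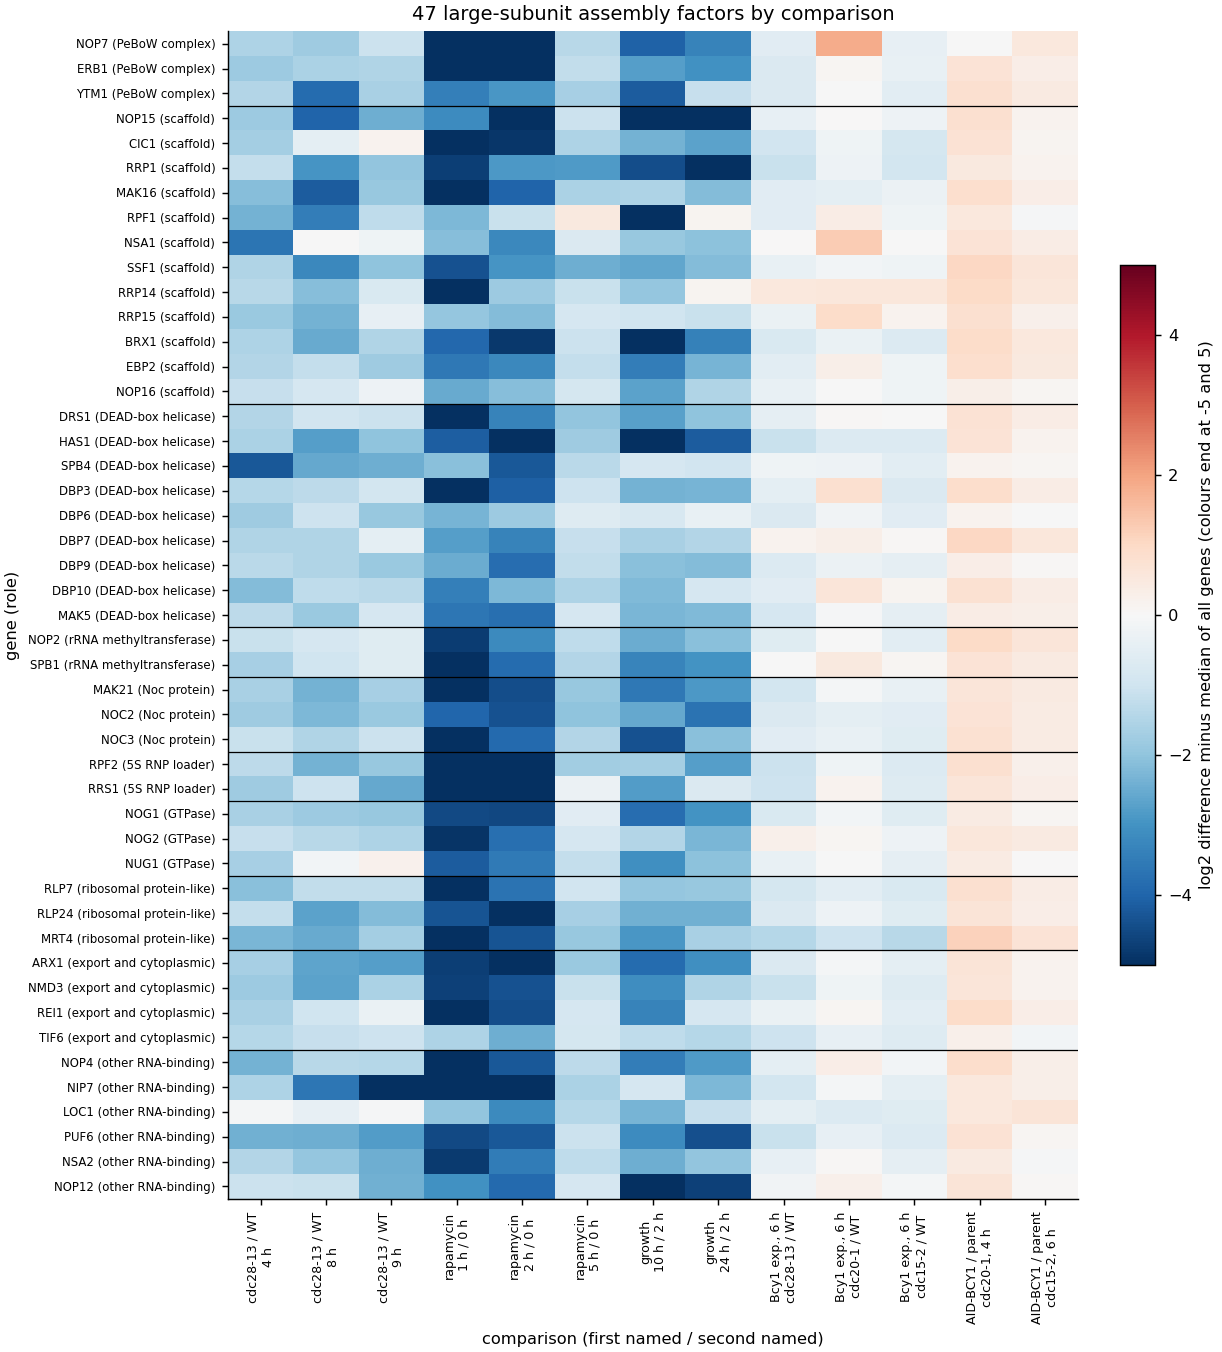
Log2 difference minus the median of all genes (colour, ending at -5 and 5) of the 47 assembly factor genes (rows, grouped by role, black lines between roles) in 13 comparisons (columns, the group named first over the group named second), with rapamycin and growth in the haploid. Genes listed at 0 in a whole group are drawn at their fitted value, which is no fold change. Blue fills the columns of rapamycin at 1 and 2 h, while *NSA1*, *LOC1*, *CIC1* and *NUG1* are pale in 1 or both of the later *cdc28-13* columns and *NOP7* and *NSA1* stand out in red for *cdc20-1* over *WT*.

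In the *cdc28-13* arrest the factor genes were lower at 8 and 9 h, the late hours with 3 libraries in each strain. At 2 h limma called no factor gene lower in *cdc28-13* than in *WT* (0.623% of all 6263 genes were lower, no factor gene had an unadjusted p under 0.05, and 567 of all genes did). At 8 h 44 of 47 were lower (21.7% of all genes) with a median of -1.97, and at 9 h 33 were lower (19.1% of all genes) with a median of -1.68. At 4 h 26 (5.46% of all genes) and at 6 h 12 (6.48%) were lower, with medians of -1.45 and -0.83, in single *cdc28-13* libraries that were assumed to vary like the other groups, so the hour at which the fall began is not settled. Ribosomal protein genes were lower in 0, 42, 93, 127 and 126 of 137 at 2, 4, 6, 8 and 9 h, with medians of -0.09, -0.79, -1.43, -2.85 and -2.87. The change from 2 to 8 h itself was lower in *cdc28-13* than in *WT* for 31 factor genes (12.5% of all genes). On the deposited values 45 factor genes were called at 4 h and 39 at 6 h, and on values scaled to the spike-in rows 11 and 20.

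**Figure D3:**
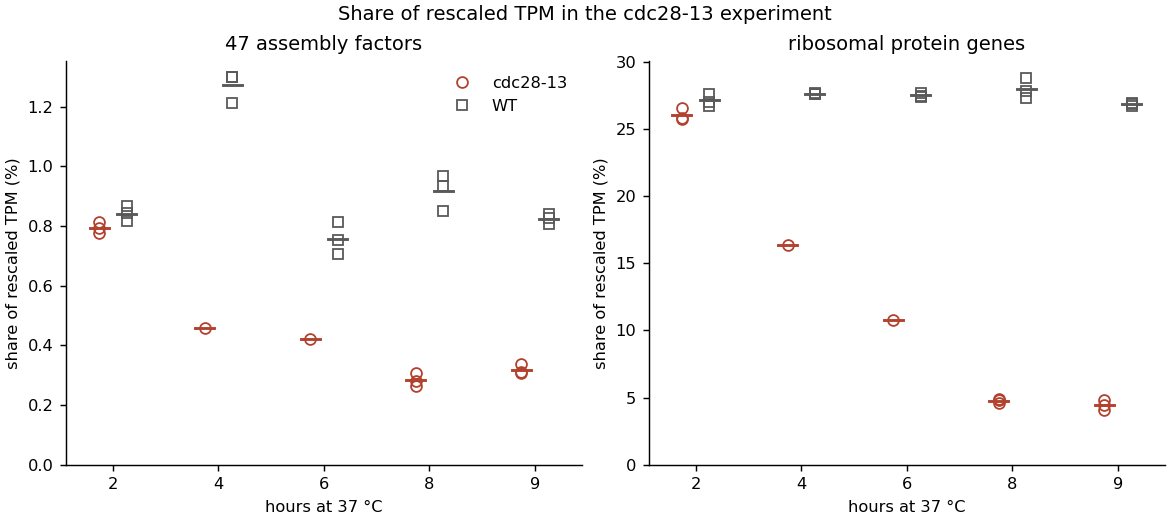
Share of rescaled TPM in percent (vertical axes, from 0) on the 47 assembly factor genes (left) and the 137 ribosomal protein genes (right) against hours at 37 °C, in *cdc28-13* (red circles) and *WT* (grey squares), with 1 point a library and bars at the group means. At 9 h the factor genes held 0.310, 0.308 and 0.338% in *cdc28-13* and 0.826, 0.839 and 0.808% in *WT*. *WT* at 4 h stands above its other hours for the factor genes, with a mean of 1.27%, and not for the ribosomal protein genes, with a mean of 27.6%.

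The 4 h difference rests in part on the *WT* libraries. *WT* factor genes at 4 h stood 0.51 to 0.66 above *WT* at 2 h relative to all genes, while *WT* ribosomal protein genes stood 0.02 to 0.03 above. The *cdc28-13* factor genes alone, relative to their own 2 h, stood at -0.88 at 4 h, -0.97 at 6 h, -1.68 to -1.43 at 8 h and -1.53 to -1.38 at 9 h, and ribosomal protein genes at -0.81, -1.37, -2.62 to -2.55 and -2.82 to -2.69. Within *cdc28-13* both lists had therefore moved by a like amount at 4 h and ribosomal protein genes by more at 8 and 9 h. The difference between the list medians in *cdc28-13* over *WT* was -0.66 at 4 h and 1.19 at 9 h, and on the deposited values -0.33 and 1.80.

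*PUF6* fell by more than the spread between replicates. It had 4.56, 4.44 and 4.69 in *cdc28-13* at 9 h, against 7.55, 7.63 and 7.23 in *WT* (-2.91 ± 0.19, adjusted p = 3.06e-10), after 7.60, 7.45 and 7.78 in *cdc28-13* and 7.16, 7.76 and 7.35 in *WT* at 2 h. *HAS1* had 4.64, 5.49 and 4.46 in *cdc28-13* at 8 h, against 7.78, 7.67 and 8.05 in *WT* (-2.97 ± 0.19, adjusted p = 2.59e-10), and 5.59, 5.54 and 5.37 at 9 h, against 7.68, 7.73 and 7.54. For both genes the groups did not overlap at 8 or 9 h. *NOG1* had 8.27, 8.36 and 8.13 in *cdc28-13* at 2 h, against 8.62, 8.55 and 8.05 in *WT*. At 4 h it had 7.55 in *cdc28-13*, against 9.08, 8.98 and 9.12 in *WT*, and at 6 h 6.69, against 8.39, 8.45 and 8.06. At 8 h it had 6.23, 6.43 and 6.49, against 8.34, 8.34 and 8.49 (-2.01, adjusted p = 5.68e-08), and the groups of this GTPase gene overlapped at 2 h only. *NOP7* had 6.07, 6.02 and 6.14 in *cdc28-13* at 8 h, against 8.17, 7.94 and 8.02 in *WT* (-1.97 ± 0.19, adjusted p = 8.69e-08), and 6.55, 6.38 and 7.39 at 9 h, against 7.79, 8.11 and 7.98 (-1.19, adjusted p = 5.86e-05).

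Of the other representatives, *RPF2* had 4.64, 5.08 and 4.99 in *cdc28-13* at 8 h, against 7.41, 7.78 and 7.26 in *WT* (adjusted p = 1.63e-07). *RLP24* had 4.47, 5.89 and 6.39, against 8.47, 8.74 and 8.19 (-2.88, adjusted p = 6.8e-06), beside changes of -2.66 for *RPL24A* and -2.63 for *RPL24B*. The placeholder and the genes of the protein it resembles had thus fallen by like amounts at this hour. *NMD3* had 5.79, 5.05 and 3.53, against 7.21, 7.72 and 8.07 (adjusted p = 6.47e-06), and *NOC3* 4.95, 4.68 and 5.82, against 6.54, 6.88 and 7.12 (adjusted p = 0.000617). *NOP2* changed least of the representatives, with 7.16, 6.88 and 6.42 in *cdc28-13*, against 7.83, 7.99 and 7.77 in *WT* (-1.04, adjusted p = 0.00076). *SSF1* had 0, 5.40 and 3.84 in *cdc28-13*, against 5.34, 6.91 and 7.25 in *WT* (adjusted p = 0.00256 with the listed 0 included), and its groups overlapped. Its paralog *SSF2* had 0, 6.13 and 6.34 in *cdc28-13*, against 5.91, 6.14 and 5.64 (adjusted p = 0.201).

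The largest fitted differences came from genes listed at 0 in some libraries. *MAK16* had 5.35, 0 and 4.21 in *cdc28-13* at 8 h, against 7.41, 7.68 and 7.54 in *WT*, and *NOP15* 5.28, 4.76 and 0, against 7.24, 7.90 and 7.57. At 9 h *NIP7*, which binds pre-rRNA, had 0, 4.76 and 0 in *cdc28-13*, against 7.13, 6.74 and 7.32 in *WT* (adjusted p = 0.00148 with the listed 0s included). The smallest differences were those of *NUG1*, a GTPase, *CIC1*, *LOC1* and *NSA1*. *NUG1* had 7.76, 7.79 and 7.62 in *cdc28-13* at 9 h, against 7.72, 7.68 and 7.47 in *WT* (0.10, adjusted p = 0.731), and *CIC1* had 7.43, 7.79 and 7.98, against 7.47, 8.00 and 7.58 (0.05, adjusted p = 0.907). *LOC1*, an RNA-binding factor, had 6.85, 7.14 and 6.39 at 9 h, against 7.19, 6.82 and 6.87. The groups of all 3 genes overlapped. *NSA1*, a nucleolar scaffold protein, had 6.59, 6.60 and 6.85 in *cdc28-13* at 8 h, against 6.91, 7.15 and 6.66 in *WT*, after 3.77 in the single *cdc28-13* library at 4 h, against 7.33, 7.14 and 7.44 (-3.53 ± 0.37, adjusted p = 1.95e-06). The 3 genes not called at 8 h were *LOC1*, *NUG1* and *NSA1*. By role, the 8 h calls covered all PeBoW, helicase, methyltransferase, Noc, 5S loader, ribosomal protein-like and export genes, 11 of 12 scaffold genes, 2 of 3 GTPases and 5 of 6 other RNA-binding factors, and at 9 h they had dropped to 5 of 12 among scaffold genes and 7 of 9 among helicases.

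The experiments with 1 library a time point give differences without a test. Their counts of genes lower by at least 1 are of differences that are not relative to all genes. In *cdc15-2* over *WT* the factor genes and ribosomal protein genes moved in parallel. Relative to all genes, the medians of the factor genes were -0.07, -0.57, -0.93, -1.34 and -1.53 at 2, 4, 6, 8 and 9 h and those of the ribosomal protein genes -0.11, -0.52, -0.94, -1.31 and -1.49. At 9 h 26 factor genes were lower by at least 1 on the log2 scale, where 6.27% of all genes were, and 68 ribosomal protein genes were. *NOG1* had 8.57, 8.20, 7.70, 7.59 and 7.36 in *cdc15-2* over the 5 hours, against 8.65, 8.62, 8.60, 8.80 and 8.65 in *WT*. *MRT4* moved most, with 7.09 in *cdc15-2* at 9 h against 8.73 in *WT*, followed by *ARX1* with a difference of -1.4. *RRP14*, a scaffold gene, had 7.62 in *cdc15-2* against 7.41 in *WT*, and *NSA1* 7.16 against 7.19. Relative to all genes, the differences of *RRP14* and *NSA1* were -0.29 and -0.53.

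In *cdc20-1* over *WT* the lists moved apart. The factor genes stood at -0.85, -1.08, -0.50 and -1.09 at 2, 4, 6 and 9 h relative to all genes and the ribosomal protein genes at -1.26, -1.98, -1.97 and -2.18. At 9 h 9 factor genes (6.48% of all genes) and 126 ribosomal protein genes were lower by at least 1, not relative to all genes. More factor genes passed 1 relative to all genes, as their median of -1.09 shows. *HAS1* had 7.05 in *cdc20-1* against 8.42 in *WT* and *MAK21* 6.72 against 7.98, the lowest differences of the 47. *NOP7* was higher at every hour compared, with 9.19, 8.98, 9.44 and 9.30 in *cdc20-1* at 2, 4, 6 and 9 h, against 8.26, 8.30, 8.06 and 8.39 in *WT*, and so was *NSA1*, with 7.77, 7.89, 8.18 and 7.99 in *cdc20-1*, against 7.34, 7.25, 7.07 and 7.32 in *WT*.

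Relative to all genes, alpha factor over DMSO gave factor gene medians of 0.05, -0.86, -0.65, -1.06, -0.78 and -0.79 at 0, 2, 4, 6, 8 and 9 h. Those of the ribosomal protein genes, also relative to all genes, were 0.04, -0.34, -0.24, -0.64, -0.39 and -1.46. At 6 h 23 factor genes (8.67% of all genes) and 20 ribosomal protein genes were lower by at least 1, not relative to all genes. The DMSO libraries themselves drifted. *MAK21* (Noc1), with the largest difference, had 6.94, 6.47, 6.55, 5.60, 6.31 and 6.63 under alpha factor, against 6.80, 7.69, 7.51, 7.13, 8.15 and 7.82 under DMSO, and *NOP7* had 6.60 under alpha factor at 6 h against 8.12 under DMSO. *TIF6* had 8.52 against 8.68 at that hour and *SPB4*, a helicase gene, 5.53 against 5.78, the smallest differences. In the prototroph over the auxotroph, both arrested by *cdc28-13*, medians are again given relative to all genes. The factor genes stood at 0.02, -0.03, 0.05 and 0.15 at 2, 4, 6 and 8 h, and the ribosomal protein genes at 0.18, 0.18, 0.52 and 0.79. No factor gene was lower by at least 1 at 8 h, where 11.7% of all genes were. *NOG1* had 7.18, 6.83, 6.45 and 6.82 in the prototroph over these hours, against 7.53, 7.10, 6.86 and 7.02 in the auxotroph.

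**Figure D4:**
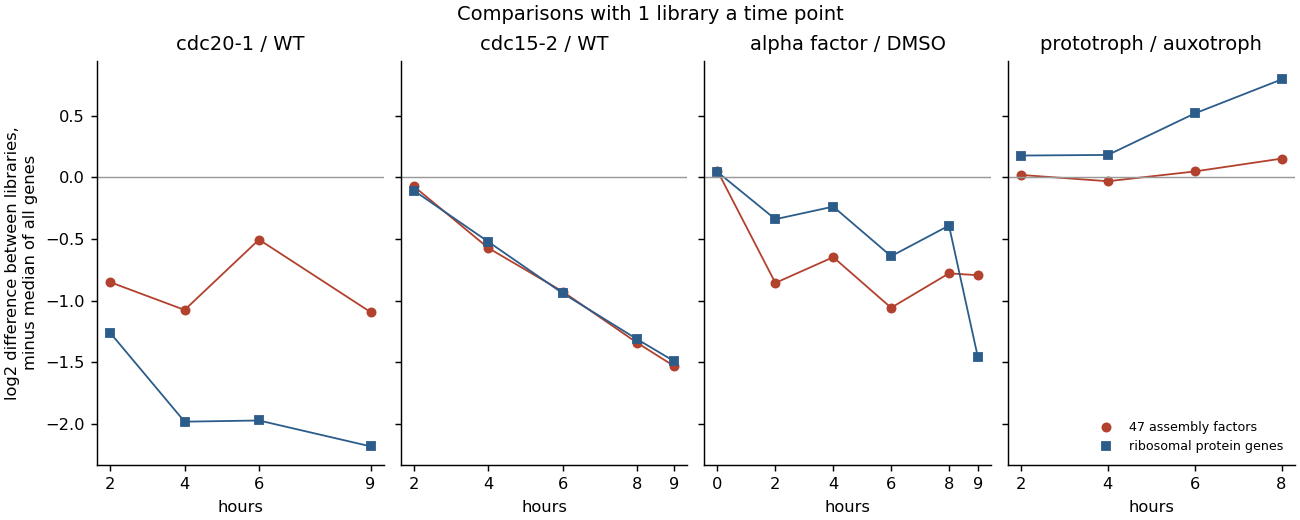
Median log2 difference minus the median of all genes (vertical axes) against hours (horizontal axes) for the 47 assembly factor genes (red circles) and the 137 ribosomal protein genes (blue squares) in the comparisons with 1 library a time point, *cdc20-1* over *WT*, *cdc15-2* over *WT*, alpha factor over DMSO and prototroph over auxotroph. The lists run together in *cdc15-2*, with -1.53 and -1.49 at 9 h, and apart in *cdc20-1*, with -1.09 and -2.18 at 9 h.

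In the Bcy1 experiment the parent strains were compared with *WT* at 6 h of 37 °C, all with the same *WT* libraries. In *cdc28-13* 19 factor genes were lower (17.9% of all 6074 genes), in *cdc20-1* 1 (14.6%) and in *cdc15-2* 3 (7.89%), and 98, 124 and 85 ribosomal protein genes were. In *cdc20-1* 6 factor genes were higher, where 29.7% of all genes were. The counts moved with the *WT* libraries. Without the first 6 h *WT* library, 40 factor genes were lower in *cdc28-13*, 4 in *cdc20-1* and 12 in *cdc15-2*, and without the second 9, 0 and 1. Without the second *cdc20-1* library none was lower in *cdc20-1*, and without the first *cdc15-2* library 1 was lower in *cdc15-2*. With values centred on the median gene 31, 5 and 26 factor genes were lower in *cdc28-13*, *cdc20-1* and *cdc15-2*. Relative to its own 2 h and to all genes, *cdc15-2* stood at -1.23 and -0.76 in its libraries at 6 h, against -0.01 and 0.61 in *WT*. *MRT4* was lower in all 3 arrests. It had 7.50 and 7.79 in *cdc28-13* (-1.28, adjusted p = 6.93e-05), 8.15 and 8.07 in *cdc20-1* (-0.81, adjusted p = 0.00598) and 7.47 and 8.17 in *cdc15-2* (-1.10, adjusted p = 0.000511), against 8.70 and 9.15 in *WT*. *RRP1*, a scaffold gene, had 6.25 and 6.41 in *cdc28-13* (-0.99, adjusted p = 1.41e-04) and 6.49 and 6.93 in *cdc15-2* (-0.61, adjusted p = 0.0135), against 7.09 and 7.54 in *WT*. *HAS1* had 6.87 and 7.19 in *cdc28-13* against 7.77 and 8.21 in *WT*.

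At 2 h, before auxin, *cdc15-2* had 24 factor genes above *WT* (6.31% of all genes were higher), with a median of 0.93. *DBP10* had 7.53 and 7.64 in *cdc15-2* against 6.12 in *WT* (adjusted p = 0.00671), and *NOP4* 8.09 and 8.38 against 6.71 (adjusted p = 0.0326). *WT* had a single library there, assumed to vary like the other groups, so these calls compare *cdc15-2* with that library.

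*NOP7* and *NSA1* were again high in *cdc20-1*, here with replicates. *NOP7* had 10.29 and 10.25 in *cdc20-1* at 2 h, against 7.64 in *WT* (2.58 ± 0.32, adjusted p = 1.14e-06). At 4 h it had 10.07 and 9.55, against 8.39 and 8.70 (1.26, adjusted p = 0.000365), and at 6 h 10.24 and 10.27, against 7.60 and 8.81 (2.05 ± 0.26, adjusted p = 3.43e-07). No *cdc20-1* library overlapped a *WT* library at any hour. *NSA1* had 8.31 and 8.40 in *cdc20-1* at 6 h, against 6.54 and 7.19 in *WT* (1.49 ± 0.17, adjusted p = 5.64e-08), and 8.28 and 8.18 at 2 h, against 6.59. In the AID-BCY1 strains, in which *cdc20-1* was *MATa*, *NOP7* had 8.65 and 9.36 in *cdc20-1* at 6 h, against 8.29 and 8.33 in *WT* (0.70 ± 0.26, adjusted p = 0.0393), and *NSA1* 8.24 and 8.47, against 6.88 and 6.88 (1.48 ± 0.17, adjusted p = 1.26e-07). The remaining 4 genes called higher in parental *cdc20-1* at 6 h were *RRP15*, *DBP3*, *DBP10* and *RPF1*.

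AID-BCY1 strains were compared with their parents at 6 h to see whether keeping protein kinase A active alters the levels. No factor gene was called higher in *WT* (7% of all genes were higher), *cdc28-13* (7.64%), *cdc20-1* (7.28%) or *cdc15-2* (6.62%), and in either direction 3, 2, 7 and 4 factor genes had an unadjusted p under 0.05, against 1818, 1993, 1895 and 2234 of all genes. Ribosomal protein genes were higher in 2, 99, 102 and 109 of 137. Relative to all genes, the medians of the 2 library series were -0.43 and 0.09 for the factor genes in *WT*, -0.08 and 0.05 in *cdc28-13*, -0.35 and -0.09 in *cdc20-1*, and 0.17 and 0.45 in *cdc15-2*. Those of the ribosomal protein genes were -0.49 and 0.18 in *WT*, 0.37 and 0.92 in *cdc28-13*, 0.39 and 1.08 in *cdc20-1*, and 0.75 and 0.80 in *cdc15-2*. In each of the 3 arrests the ribosomal protein genes thus lay above the factor genes in both series. For *cdc15-2*, 15 factor genes were called higher when values were centred on the median gene and 9 in a fit of the compared groups alone. Without the second 6 h *WT* library 5 were called higher in *WT*, and without the second parental *cdc15-2* library 1 in *cdc15-2*.

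Factor genes called lower with AID-BCY1 at 6 h were *TIF6* in *WT* (6.91% of all genes were lower), *NSA2* and *TIF6* in *cdc28-13* (15.4%), and *NOP7* and *TIF6* in *cdc20-1* (13%). *TIF6* had 8.38 and 8.19 in *WT* with AID-BCY1, against 8.82 and 8.70 in the parent (-0.48, adjusted p = 0.0463). *NOP7* changed by -1.25 ± 0.26 in *cdc20-1* (adjusted p = 0.000725). That effect was lower than the effect in *WT* (difference -1.36, adjusted p = 0.0322), the only such call (2.98% of all genes). Since auxin was added after 2 h, the effect at 6 h was also compared with that at 2 h. No factor gene differed in *WT*, *cdc28-13* or *cdc15-2* (1.78, 7.15 and 14.6% of all genes did, and 1, 0 and 0 factor genes had an unadjusted p under 0.05), and 1, *RRS1*, did in *cdc20-1* (11.8% of all genes, -0.97, adjusted p = 0.0399). Without the first AID-BCY1 *cdc20-1* library of 2 h 6 genes were called there, without the second of 6 h 5, and without any of the remaining 6 libraries none. At 4 h 19 factor genes were higher in *cdc20-1* with AID-BCY1 than in the parent (10.3% of all genes were higher), as were 125 ribosomal protein genes. *MRT4* had 8.73 and 8.77 with AID-BCY1, against 8.13 and 7.25 in the parent (1.06, adjusted p = 0.000952), and *NOP2* had 8.77 and 8.77, against 8.11 and 7.66 (0.89, adjusted p = 0.00119). The groups of neither gene overlapped, and the second library of the parent was the lower of the pair for both.

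**Figure D5:**
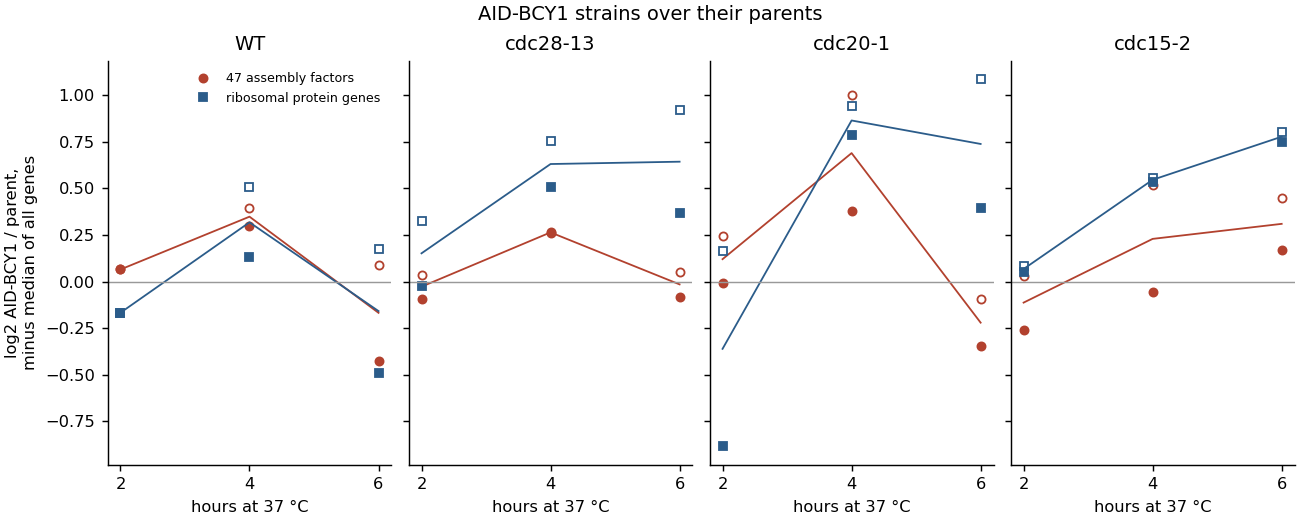
Median log2 difference of AID-BCY1 strains over their parents, minus the median of all genes (vertical axis), against hours at 37 °C (horizontal axes), in *WT*, *cdc28-13*, *cdc20-1* and *cdc15-2*, for the 47 assembly factor genes (red circles) and the 137 ribosomal protein genes (blue squares). Points are the 2 library series, filled for the lower and open for the higher value, and lines join their means. Auxin was given after 2 h. At 6 h the ribosomal protein genes of *cdc28-13* stood at 0.37 and 0.92 and the factor genes at -0.08 and 0.05.

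Gene by gene, the factor genes varied between libraries of a group by a median SD of 0.38 in the *cdc28-13* experiment, 0.84 in stationary phase, 0.71 under rapamycin and 0.27 in the Bcy1 experiment, on the log2 scale. The spread of *RRP1* under rapamycin (2.12) and of *NIP7* in the *cdc28-13* experiment (1.62) was the widest there, and that of *NOG1* under rapamycin (0.21) the narrowest. *REI1*, which releases an export factor in the cytoplasm, overlaps YBR266C on the opposite strand by 453 bases, and whether reads were counted by strand is not given in the sources used here.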

How the data were processed

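RNA was extracted with RNeasy kits and sequenced on an Illumina instrument. The authors deposited 1 table of log2(TPM + 1) values for 159 libraries, made with STAR 2.5.3a and RSEM 1.3.0 on sacCer3 per the submitters' processing notes. TPM summed to 1000000 in 5 experiments and to 625303 to 1047827 in the others, for which further scaling is not stated. Values were returned to TPM, the 6678 nuclear open reading frames outside 7 inside the ribosomal DNA were rescaled to 1000000 and log2(TPM + 1) was taken again. Genes with a mean of at least 1 within an experiment were kept. Fold changes are on this scale, which understates those of low genes. Within each experiment limma 3.58.1 (R 4.3.3) was fitted to all its groups, with library series as a covariate in the Bcy1 experiment, and p-values were adjusted by Benjamini-Hochberg over all genes kept. Groups with 1 library were assumed to vary like the others. Experiments with 1 library a time point got no test, and a difference of 1, not relative to all genes, was used as the limit. Plots were drawn with matplotlib 3.10.9 and tables made with pandas 2.3.3 under Python 3.11.15. The script was tested on simulated data.

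Genes named with values per library were 1 of each role (*NOP7*, *SSF1*, *HAS1*, *NOP2*, *NOC3*, *RPF2*, *NOG1*, *RLP24*, *NMD3*, *PUF6*), the largest and smallest changes of each main comparison and the counterparts of the ribosomal protein-like genes and of *SSF1*. Others (such as *NOP7* and *NSA1* in *cdc20-1* strains and the genes called in small counts) were picked after their values were seen. The members and lists were chosen with earlier results of these data known. Alternatives were the deposited scale, ribosomal DNA frames kept, centring on the median gene, a pseudocount of 0.1, a filter of 3 or none, a fit of the compared groups alone, no series covariate, a replicate block, the mean over a list and each library left out. Scaling to the spike-in rows was added after seeing the data.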

Additional observations from a re-analysis of the deposited data

Results flagged for a closer look

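Some effects differed between groups by a test of the difference itself (limma, adjusted p under 0.05). The change of factor genes from 2 to 8 h was lower in *cdc28-13* than in *WT* for 31 of the 47 genes (12.5% of all genes). The change from 2 to 10 h of growth was lower in the diploid-labelled strain than in the haploid for 7 genes (6.26% of all genes). All 7 were listed at 0 in both diploid-labelled 10 h libraries, values that can be failed estimates. The effect of AID-BCY1 in *cdc20-1* differed between 6 h and 2 h for 1 gene, *RRS1* (11.8% of all genes). At 6 h the effect was lower in *cdc20-1* than in *WT* for 1 gene, *NOP7* (2.98% of all genes). In both cases the share of the 47 genes was below that of all genes. The *RRS1* call was also lost under several alternatives given below. No group had enough libraries to look for a library far from the rest.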

How the results depend on the processing

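Of 469 alternative values, 378 were classed as the same, 38 as stronger, 32 as weaker and 21 as moved. A count was the same where it lay within a fixed ratio of the main count. A list median or difference between lists was the same where it shifted by less than the spread between libraries. Without replicates, a fixed shift or ratio was the limit. None of these list values reversed its sign, though very small ones were not judged, and counts could not reverse by the way they were taken. The causes were not tested. Counts of factor genes called were as follows. No share of all genes was taken for these settings, so the counts show only how far they moved from the main fit. On the deposited scale, *cdc28-13* gave 45 at 4 h and 39 at 6 h, growth 41 (haploid, 10 h), 38 (haploid, 24 h) and 35 (diploid-labelled, 24 h), rapamycin at 5 h 19 in either strain, and parental *cdc15-2* 1. With ribosomal DNA frames kept, *cdc28-13* gave 33 at 6 h, growth at 24 h 33 (haploid) and 19 (diploid-labelled), and rapamycin at 5 h 7 (haploid) and 5 (diploid-labelled). With centring, diploid-labelled growth at 24 h gave 16, rapamycin at 5 h 6 (haploid) and 5 (diploid-labelled), AID-BCY1 in *cdc15-2* 15, the parental arrests 31 (*cdc28-13*), 5 (*cdc20-1*) and 26 (*cdc15-2*), and the 6 h minus 2 h effect 4 in *cdc15-2*. With spike-in scaling, chosen after seeing the data, *cdc28-13* gave 11 at 4 h and 20 at 6 h, growth 15 (haploid, 10 h) and 19 (diploid-labelled, 24 h), and rapamycin at 5 h 1 (haploid) and 3 (diploid-labelled). In fits of the compared groups alone, haploid growth at 10 h gave 12, haploid rapamycin 21 (1 h), 23 (2 h), 5 (5 h) and 1 (5 h over 2 h), diploid-labelled rapamycin 2 (5 h), AID-BCY1 in *cdc15-2* 9, parental *cdc15-2* 1, and the 6 h minus 2 h effect 2 in *cdc15-2*. Haploid rapamycin at 5 h gave 1 with no filter or a filter of 3. The 6 h minus 2 h effect in *cdc20-1* gave 0 on the deposited scale, with centring, with no filter, with no series covariate and in a fit of the compared groups alone.

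The difference between list medians moved on the deposited scale to -0.33 and 1.80 (*cdc28-13*, 4 and 9 h), -0.29 and 2.13 (haploid rapamycin, 1 and 2 h), -0.78 and 2.38 (diploid-labelled rapamycin, 1 and 2 h), and -0.52 and 1.93 (haploid growth, 10 and 24 h). With means it was 1.48 (*cdc28-13*, 9 h), 1.66 (haploid rapamycin, 2 h) and -2.51 (diploid-labelled rapamycin, 1 h). With ribosomal DNA frames kept it was -1.38 and 1.57 (haploid rapamycin, 1 and 2 h) and -2.06 (diploid-labelled, 1 h), and with a pseudocount of 0.1 1.18 (haploid, 2 h) and -2.54 (diploid-labelled, 1 h). Leaving out 1 library gave -1.81 to -1.15 and 1.33 to 1.47 (haploid rapamycin, 1 and 2 h), -2.52 to -2.05 (diploid-labelled, 1 h) and -1.47 to -0.92 (haploid growth, 10 h). Leaving out 1 library gave counts of 14 to 20 and 9 to 16 (haploid growth, 10 and 24 h), 6 to 8 (diploid-labelled growth, 24 h), 10 to 18 (haploid rapamycin, 5 h over 2 h), 0 to 5 (AID-BCY1 in *WT*), 0 to 1 (AID-BCY1 in *cdc15-2*), 9 to 40, 0 to 4 and 1 to 12 (parental *cdc28-13*, *cdc20-1* and *cdc15-2*), and 0 to 1 and 0 to 6 (6 h minus 2 h effect in *WT* and *cdc20-1*).

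Replicate numbers did not pair the libraries (median correlations of deviations 0.0011 to 0.0026, none over 0.1). With a replicate block the counts were 0, 25, 9, 42 and 34 for *cdc28-13* at 2, 4, 6, 8 and 9 h, 25 and 17 for haploid growth, and 37, 39 and 0 for haploid rapamycin at 1, 2 and 5 h. Depth is unknown, so values listed at 0 cannot be given a floor.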
